A study of Rattus norvegicus and Mus musculus with 3 samples.

Results

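The 8 genes described here encode calmodulin (Calm2, Calm3), the calmodulin-binding protein neurogranin (Nrgn), the 4 subunits of Ca2+/calmodulin-dependent protein kinase II (CaMKII; Camk2a, Camk2b, Camk2d, Camk2g) and CaMKIV (Camk4). They were picked by name, and all 8 were found in each table, among 30438 genes listed in each rat table and 34714 in the mouse table. Hippocampal total RNA was sequenced in 3 libraries, 1 per group: a Sham rat and a 2VO rat, both 3 to 4 months old, and a wild-type mouse of 6 months from the 3xTg-AD line. All 3 carry the genotype label WT. In this field 2VO usually names the tying-off of both common carotid arteries, which lowers blood flow to the forebrain, and Sham names surgery without it; the sources used here do not give the rat strain, the sex, the time after surgery or any pooling of animals. 3xTg-AD is a transgenic mouse model of Alzheimer's disease, and transgenic mice were not analysed here. With 1 library per group there is no replicate error, nothing was tested, and each difference describes 2 libraries and not the conditions.

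Calmodulin is a small soluble protein that folds around calcium ions and then binds and switches on its target enzymes. In forebrain neurons one of its main targets is CaMKII, a ring of kinase subunits that is very abundant at excitatory synapses, phosphorylates itself once activated and is required for long-term potentiation in the hippocampus. Neurogranin holds calcium-free calmodulin in dendritic spines, and CaMKIV works mainly in the nucleus, where it phosphorylates the transcription factor CREB.

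The values are normalized expression levels in a unit that the sources used here do not state, called units below. Levels of different genes can be ranked against each other only if the values are per transcript length, which the sources do not say. In the mouse table, Spearman's rho between level and the longest GENCODE transcript was -0.07 across 11947 genes, which are not independent. Together the 8 genes took up 1.23% of the total in Sham, 1.12% in 2VO and 1.19% in the mouse. A gene is called measured when its mean over the 2 rats reached 1 unit, and 13550 were, all 8 genes included. The 2 rats were compared by the log2 ratio of 2VO over Sham after 1 unit was added to each value, so small levels look closer together than they are.

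Both rats had the same ranking of the 8 genes, from Calm3 at the top through Nrgn, Camk2a, Calm2, Camk2b, Camk2g and Camk4 to Camk2d. In the 2VO library 6 of the 8 were lower and 2 were higher than in Sham. The 6 lower genes, Camk2b, Camk4, Calm2, Camk2a, Calm3 and Nrgn, differed by 14.7% at most, while the 2 higher genes, Camk2g and Camk2d, differed by 36.9% and 28.5% as plain ratios of the deposited values. Of all measured genes 41.3% were lower in 2VO and 58.7% higher, and the median log2 ratio was -0.09 over the 8 genes against 0.04 over all measured genes. At a difference of at least 5/4-fold (a log2 ratio of 0.322 or more in size), 1 of the 8 genes was higher, Camk2g, against 8.1% of all measured genes, and 0 of the 8 were lower, against 4.58%. At 1.5-fold the 8 genes gave 0 in either direction, against 1.51% and 0.967% of all measured genes. For a set of 8 genes, 1 past 5/4-fold is close to the share among all genes. Fewer cells of a type and less RNA per cell cannot be told apart in such bulk tissue.

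**Figure D1:**
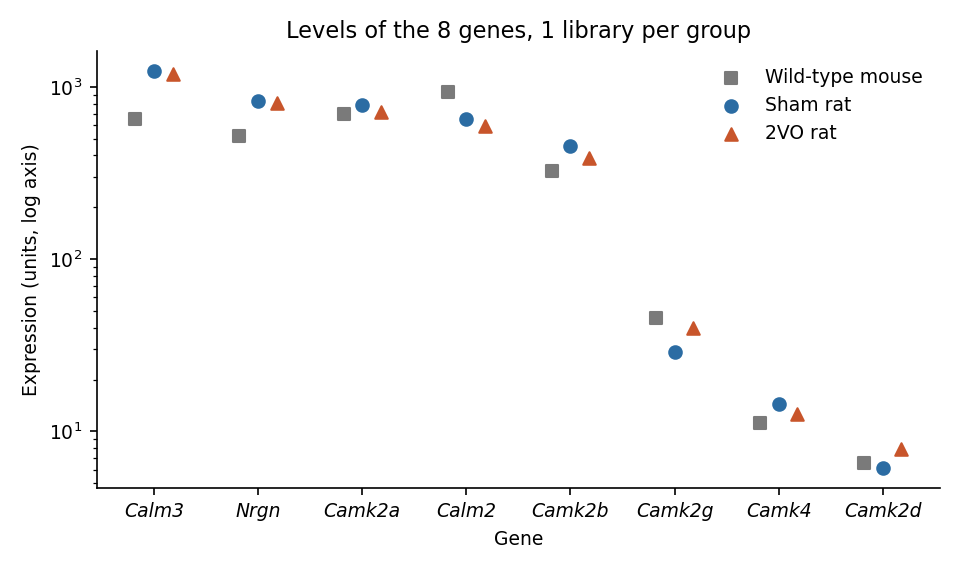
Expression of the 8 genes in units on a log axis, 1 point per library (square, wild-type mouse; circle, Sham rat; triangle, 2VO rat), in the order of the Sham levels. The first 5 genes lie above 300 units in all 3 libraries and the last 3 below 50, and the mouse point for Calm2 lies above both rat points while that for Calm3 lies below both.

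**Figure D2:**
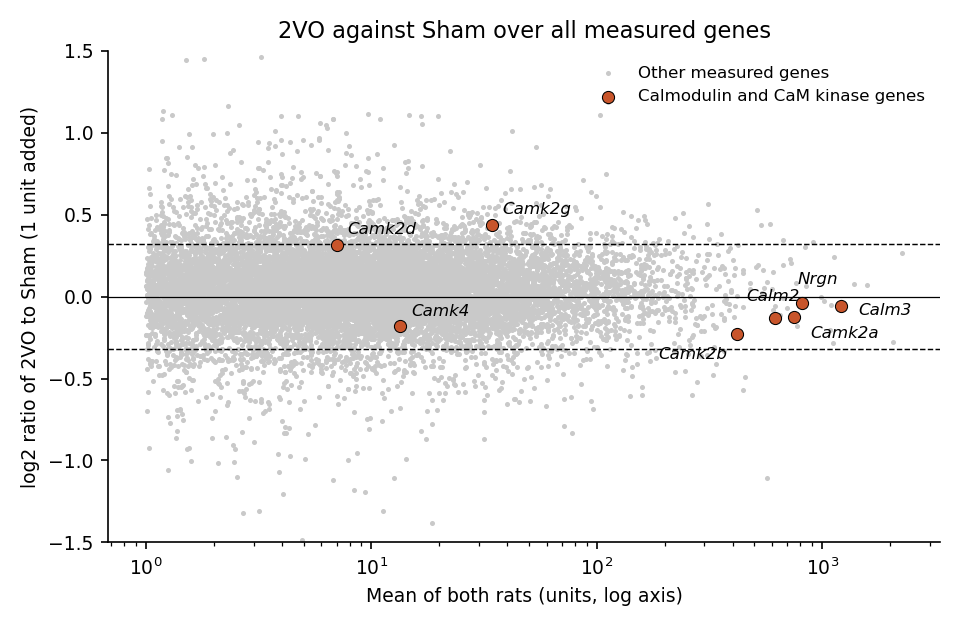
Log2 ratio of 2VO to Sham (1 unit added) against the mean of both rats in units on a log axis, with 1 grey point per measured gene and the 8 named genes in orange. Dashed lines mark 5/4-fold, and 17 genes lie beyond the plotted range of 1.5 log2 units; Camk2g alone of the 8 lies past a dashed line.

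The calmodulin genes were among the most abundant transcripts of each library. Calm2 measured 647 units in Sham, 592 in 2VO and 937 in the mouse. It was the 25th most abundant gene in Sham, ranked 32 in 2VO and ranked 4 in the mouse. Calm3 measured 1242 units in Sham, 1192 in 2VO and 655 in the mouse, with ranks of 5, 6 and 13. The rats therefore lay close together for both genes, with log2 ratios of 2VO to Sham of -0.13 for Calm2 and -0.06 for Calm3, and the mouse stood apart from both in opposite directions.

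Calm2 and Calm3 encode the same protein from different genes, so their messages can be counted apart only by silent differences in the code and by the untranslated ends. The mouse coding sequences in GENCODE M21 are each 450 bases long with the stop codon and differ at 78 bases, 74 of them at the third base of a codon, with 0 differences in the 149 encoded amino acids. The longest run without a difference was 17 bases, and 82.7% of the bases were identical. The first 150 coding bases are shown, because Calm2 was higher and Calm3 lower in the mouse than in both rats. Capitals mark the 23 bases of this stretch that differ between the genes.
Calm2: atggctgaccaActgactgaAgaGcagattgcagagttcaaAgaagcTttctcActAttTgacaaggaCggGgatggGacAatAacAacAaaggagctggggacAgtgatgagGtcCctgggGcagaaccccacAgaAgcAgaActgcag
Calm3: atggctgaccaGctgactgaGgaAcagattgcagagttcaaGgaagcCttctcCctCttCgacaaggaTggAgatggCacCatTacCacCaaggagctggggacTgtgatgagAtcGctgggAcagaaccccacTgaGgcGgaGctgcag

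Calm3 over Calm2 was 1.92 in Sham and 2.01 in 2VO, so the balance of these genes was nearly alike in the 2 rats. In the mouse the same quotient was 0.699. Calm3 thus made up 65.8% of the Calm2 and Calm3 levels in Sham, 66.8% in 2VO and 41.1% in the mouse. Their summed level was 1889 units in Sham, 1783 in 2VO and 1591 in the mouse, a narrower span than that of either gene alone. The sources used here do not say how reads that match more than 1 gene copy were handled, and its part in the split between species was not tested.

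Nrgn measured 823 units in Sham, 802 in 2VO and 516 in the mouse. It was the 14th most abundant gene in Sham, ranked 15 in 2VO and ranked 20 in the mouse. Of the 8 genes it had the log2 ratio of 2VO to Sham nearest to 0, at -0.04, and its level per Camk2a was 1.05 in Sham, 1.12 in 2VO and 0.739 in the mouse. Neurogranin has 78 amino acids. It grips calmodulin through its IQ motif, and phosphorylation of a serine in this motif by protein kinase C releases calmodulin. The 78 coding bases around the motif are shown because this stretch is what makes Nrgn part of the calmodulin system. Capitals mark codons 33 to 36 of the mouse message, from the isoleucine and glutamine that name the motif to that serine.
Nrgn: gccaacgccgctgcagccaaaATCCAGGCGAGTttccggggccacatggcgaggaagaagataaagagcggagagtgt

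Camk2a, the alpha subunit of CaMKII and a classic marker of excitatory forebrain neurons, measured 780.4 units in Sham, 717 in 2VO and 699 in the mouse. It was the 16th most abundant gene in Sham, ranked 21 in 2VO and ranked 9 in the mouse. The 3 libraries spanned less for Camk2a than for any other of the 8 genes: Sham was 1.12 times the mouse. Its log2 ratio of 2VO to Sham was -0.12. Camk2b, the beta subunit, which also binds actin filaments in spines, measured 452 units in Sham, 385 in 2VO and 324 in the mouse. Its log2 ratio of 2VO to Sham, -0.23, was the lowest of the 8 and ranked at percentile 8.72 of all measured genes.

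Camk2g, the gamma subunit, which can carry calmodulin to the nucleus, measured 29.0 units in Sham, 39.6 in 2VO and 45.5 in the mouse. Here Sham was the low library and 2VO lay nearer to the mouse than to Sham. Its log2 ratio of 2VO to Sham was 0.44, the highest of the 8, at percentile 96.5 of all measured genes. Camk2d, the delta subunit, best known from heart muscle, measured 6.13 units in Sham, 7.88 in 2VO and 6.55 in the mouse. Its log2 ratio of 0.316 lay just short of 5/4-fold, and with 0.25 units added in place of 1 it was 0.35 and passed. Camk2g passed 5/4-fold unless the ratios were centred on pan-neuronal markers, where it was 0.27.

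The CaMKII subunits share a regulatory segment that blocks the kinase until calmodulin binds, and a threonine in it is a site of autophosphorylation. The 90 coding bases around this threonine are shown for 3 of the 4 subunit genes, since they show how alike the subunits are in protein and how far apart in bases. Capitals mark the codon of this threonine, number 287 in the Camk2b and Camk2d messages and 285 in that of Camk2g, in the longest coding transcripts of GENCODE M21.
Camk2b: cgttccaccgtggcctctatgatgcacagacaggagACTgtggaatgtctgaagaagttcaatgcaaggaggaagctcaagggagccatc
Camk2d: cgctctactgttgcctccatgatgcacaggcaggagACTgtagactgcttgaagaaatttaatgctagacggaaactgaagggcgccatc
Camk2g: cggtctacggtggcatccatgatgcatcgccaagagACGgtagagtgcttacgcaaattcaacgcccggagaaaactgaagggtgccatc
Over this segment Camk2b and Camk2g differed at 26 bases but at 1 of 30 amino acids, Camk2b and Camk2d at 18 bases and 1 amino acid, and Camk2d and Camk2g at 22 bases and 2 amino acids.

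The balance among the 4 CaMKII genes was dominated by Camk2a and Camk2b in every library. Camk2a made up 61.6% of the summed CaMKII level in Sham, 62.3% in 2VO and 65.0% in the mouse. Camk2b made up 35.7%, 33.5% and 30.2%. Camk2g and Camk2d together held 2.77% in Sham, 4.13% in 2VO and 4.84% in the mouse, so the minor subunits took their smallest share in Sham. Within this, Camk2g alone went from 2.28% in Sham to 3.45% in 2VO, and stood at 4.23% in the mouse. Camk2b over Camk2g was 15.6 in Sham, 9.72 in 2VO and 7.13 in the mouse, a quotient that no scaling of a library can change. The summed CaMKII level was 1268 units in Sham, 1150 in 2VO and 1075 in the mouse.

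**Figure D3:**
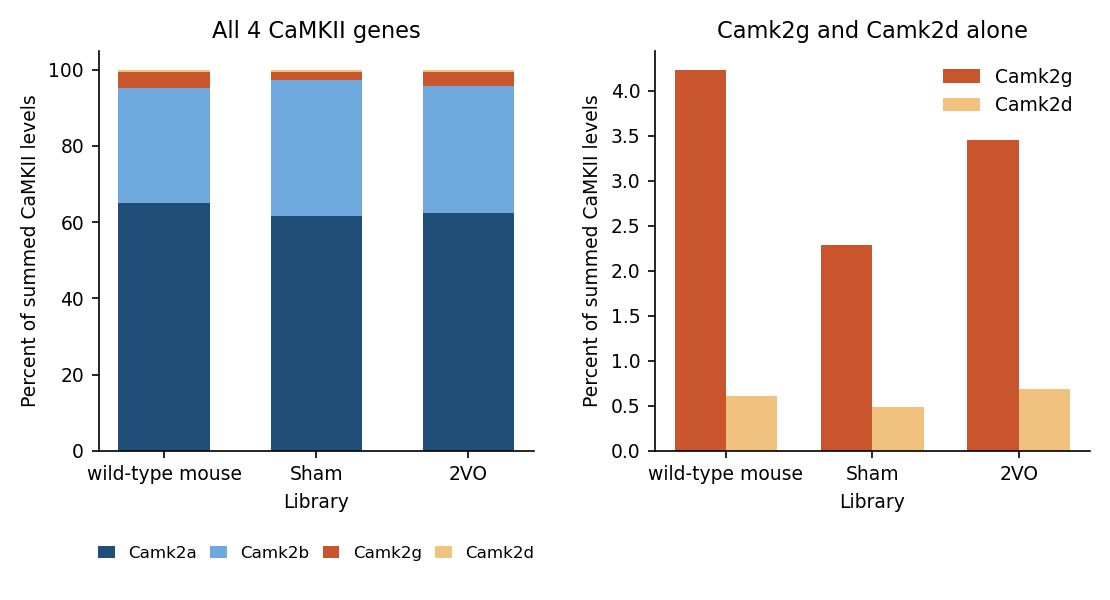
Share of the summed level of the 4 CaMKII genes in percent, per library, as stacked bars for all 4 genes (left) and as single bars for Camk2g and Camk2d (right), each axis starting at 0. Camk2a and Camk2b fill over 95% of every bar on the left, and on the right both minor subunits are lowest in Sham.

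Camk2b and Camk2g had the lowest and the highest ratio of 2VO to Sham, so the 300 bases around their annotated starts in the rat are shown. They come from RefSeq on the build GRCr8, which is not the build named in the submitters' processing notes, and 6 of the 8 genes matched an entry there. Calm2 and Calm3 were not among them. Capitals mark the GC box GGGCGG on either strand, with overlapping matches merged. The Camk2b region lies on the minus strand at chr14:85147895-85148194 and the Camk2g region on the plus strand at chr15:3553106-3553405.
Camk2b: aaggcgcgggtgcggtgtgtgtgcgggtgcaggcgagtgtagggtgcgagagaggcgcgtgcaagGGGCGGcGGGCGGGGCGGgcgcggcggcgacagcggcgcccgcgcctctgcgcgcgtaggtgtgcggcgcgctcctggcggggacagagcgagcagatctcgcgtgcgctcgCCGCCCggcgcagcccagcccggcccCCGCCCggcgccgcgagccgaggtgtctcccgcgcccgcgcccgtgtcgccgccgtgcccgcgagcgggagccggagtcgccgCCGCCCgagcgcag
Camk2g: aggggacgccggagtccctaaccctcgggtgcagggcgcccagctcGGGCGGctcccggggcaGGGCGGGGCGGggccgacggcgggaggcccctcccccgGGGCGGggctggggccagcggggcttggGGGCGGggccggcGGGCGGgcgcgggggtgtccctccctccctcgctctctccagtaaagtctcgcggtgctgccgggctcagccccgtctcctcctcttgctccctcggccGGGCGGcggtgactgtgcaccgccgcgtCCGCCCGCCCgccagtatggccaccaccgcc
Both regions are GC-rich, at 81.3% G and C in Camk2b and 80.0% in Camk2g against a median of 51.7% over all 33469 regions of this length. They hold 6 and 9 matches to GGGCGG, and 33.1% of all such regions hold at least 1. The other 4 matched genes had 74.7% G and C with 3 matches (Camk2d), 61.3% with 0 (Camk2a), 57.7% with 2 (Nrgn) and 45.7% with 0 (Camk4). None of the 6 matched genes holds TGACGTCA, the cAMP response element bound by CREB, and 1.83% of all regions do. Its part TGACG occurs at 2 places in the Camk2a region, and 21.2% of all regions hold at least 1. The matches describe letters only.

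Camk4 measured 14.3 units in Sham, 12.5 in 2VO and 11.3 in the mouse, with a log2 ratio of 2VO to Sham of -0.18. In all 3 libraries it was far below the alpha and beta genes of CaMKII. The list labelled CREB arm downstream of CaMKIV held 13 genes, all measured, with a median log2 ratio of 0.06. It mixes CREB family genes and their coactivators with the deacetylase genes Hdac4 and Hdac5 and with Mef2a, Mef2c and Mef2d. In this HDAC and MEF2 part, Hdac4, Hdac5, Mef2c and Mef2d were lower in 2VO, at -0.11, -0.22, -0.07 and -0.09. Mef2a was higher, at 0.06. Among the CREB family genes and coactivators Crtc3 was lower, at -0.07, and the rest were higher. At 5/4-fold 0 of the 13 were higher or lower, beside 8.1% and 4.58% of all measured genes. Crebbp, the CREB-binding coactivator, had the highest ratio of the 13, at 4.55 units in Sham and 5.51 in 2VO. Hdac5, a histone deacetylase that CaM kinases drive out of the nucleus, had the lowest ratio, at 38.5 and 32.8 units.

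Among other CaM kinases and their regulators, 17 of 18 genes were measured, 11 higher and 6 lower in 2VO. At 5/4-fold 0 were lower, beside 4.58% of all measured genes, and 1 was higher, beside 8.1%. That gene was Camk1g, a CaM kinase I, at 5.51 units in Sham, 8.75 in 2VO and 11.0 in the mouse, again with Sham as the low library. Camk1, the founding CaM kinase I gene, had the lowest ratio of the list, at 19.9 and 17.2 units in the rats. The upstream kinase gene Camkk1 was 128 units in both rats and 60.8 in the mouse, and the pseudokinase gene Camkv was 136 in Sham, 139 in 2VO and 238 in the mouse. Camk2n1, which encodes a small inhibitor of CaMKII, measured 379 units in Sham, 369 in 2VO and 134 in the mouse. Per unit of summed CaMKII level this inhibitor stood at 0.299 in Sham, 0.321 in 2VO and 0.125 in the mouse.

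Calcineurin, the calmodulin-activated phosphatase that opposes CaMKII, showed small differences in its main subunits. Ppp3ca was 271 units in Sham and 267 in 2VO, Ppp3cb 148 and 165, and the regulatory subunit gene Ppp3r1 304 and 278. Of 12 measured genes in that list 2 were at least 5/4-fold higher and 1 lower, beside 8.1% and 4.58% of all measured genes. The list median was 0.09. Akap5, which anchors calcineurin at synapses, had the highest ratio, at 11.9 and 16.1 units, and Nfatc2, a transcription factor that calcineurin activates, the lowest, at 3.08 and 2.14.

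The calmodulin-regulated cyclases, phosphodiesterases and nitric oxide synthase held 6 measured genes with a median of -0.01. At 5/4-fold 0 of them were higher, beside 8.1% of all measured genes, and 1 was lower, beside 4.58%. Adcy1, a calcium-stimulated adenylyl cyclase of the hippocampus, was that gene, at 189.6 units in Sham, 129 in 2VO and 90.4 in the mouse. Nos1, the neuronal nitric oxide synthase gene, had the highest ratio of the list, at 3.83 and 4.35 units in the rats. Calmodulin-binding proteins of the IQ and MARCKS kind had 15 measured genes, a median of 0.01, and 1 gene past 5/4-fold on each side. The shares of all measured genes were 8.1% on the higher side and 4.58% on the lower. Gap43, a growth cone protein with an IQ motif like that of neurogranin, was 60.3 units in Sham and 78.6 in 2VO, and Marcks was 20.5 and 16.1. Camta2, a calmodulin-binding transcription activator, was 124 and 117. The calmodulin and calmodulin-like list, which holds Calm2 and Calm3 too, had 4 measured genes, a median of 0.00 and 0 genes past 5/4-fold, and its highest ratio was that of Calml4, at 4.46 and 5.001 units.

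Synaptic partners and substrates of CaMKII were all measured, 13 of 19 higher and 6 lower in 2VO with a median of 0.05. At least 5/4-fold higher were 3 of the 19, beside 8.1% of all measured genes, and 0 were lower, beside 4.58%. Syn1, a vesicle protein that CaMKII phosphorylates, was 118 units in Sham and 166 in 2VO, and Syn2 was 123 and 159. Stx1a, a fusion protein named after its values were seen, was 30.9 and 42.5. The log2 ratio of Syn2 was 0.37 as deposited and 0.31, short of 5/4-fold, with equal upper quartiles. Centring on pan-neuronal markers put all of them short of it, Syn1 at 0.321, Stx1a at 0.28 and Syn2 at 0.198. On the postsynaptic side the NMDA receptor gene Grin1 was 159 and 164 units, the AMPA receptor gene Gria1 165 and 152, and the scaffold gene Dlg4 139 and 144. Cacng8, an auxiliary subunit of AMPA receptors, was 159.7 and 156, and the phosphatase subunit gene Ppp1ca was 117 and 122. Ppp1r9b, which encodes the spine scaffold spinophilin, was 242 and 199. Cacna1c, a calcium channel subunit, had the lowest ratio, at 12.02 and 9.498 units.

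Neuronal calcium sensors, which share the calmodulin fold, showed the widest spread of the 8 lists. Of 16 measured genes 4 were at least 5/4-fold higher and 1 lower in 2VO, beside 8.1% and 4.58% of all measured genes. The list median was 0.01. Kcnip3, a potassium channel-interacting sensor also known as a transcriptional repressor, had the highest ratio, at 15.3 units in Sham, 29.3 in 2VO and 25.1 in the mouse. Cabp7 had the lowest ratio, at 167 units in Sham, 119 in 2VO and 74.4 in the mouse. Hpca, the hippocalcin gene of pyramidal cells and the most abundant of the list, was 1222 in Sham, 1006 in 2VO and 634 in the mouse. Hpcal4 was 157 and 128 in the rats, Ncald 134 in both, and Vsnl1 129.6 and 153.

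**Figure D4:**
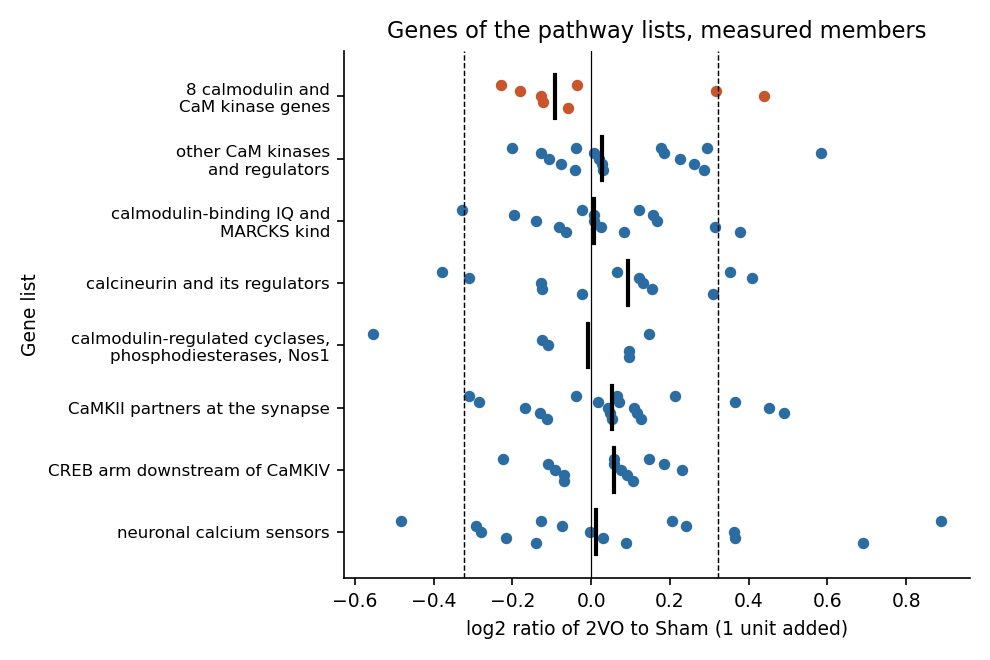
Log2 ratio of 2VO to Sham (1 unit added) for the 8 named genes (orange) and the measured genes of 7 pathway lists (blue), 1 point per gene, with a black bar at each median and dashed lines at 5/4-fold. All list medians lie between -0.1 and 0.1, and most points lie between the dashed lines; the vertical spread within a list carries no value.

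Markers of neurons and of other cell types were read beside these values, since bulk tissue mixes cell types. Among all measured genes 58.7% were higher in 2VO and 41.3% lower. Pan-neuronal markers had a median log2 ratio of 0.17, with 11 of 14 higher in 2VO and a summed level of 3007 units in Sham and 3381 in 2VO. Excitatory neuron markers were divided, 7 of 13 higher, with a median of 0.00 and sums of 1792 and 1712 units. CA pyramidal cell markers had a median of -0.25, with 5 of 9 measured genes lower and 4 higher, and sums of 639 and 551. At 5/4-fold 4 of the 9 were lower, beside 4.58% of all measured genes, and 1 was higher, beside 8.1%. Past the same fold 4 of 14 pan-neuronal markers were higher and 0 lower, and 2 of 13 excitatory neuron markers lay on each side. Dentate granule cell markers had a median of -0.10, with 4 of 6 lower, 1 past 5/4-fold on each side, and sums of 265 and 253. All 5 of the 8 genes that averaged 100 units or more were lower in 2VO, as were 40.9% of the 577 measured genes at that level. Beside them the pyramidal cell median was lower, the excitatory neuron median was near 0 and the pan-neuronal median was higher.

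Neocortex markers were higher in 2VO in 7 of 7 genes, with a median of 0.85 and summed levels of 61.5 units in Sham and 103 in 2VO. Past 5/4-fold were 4 of the 7, beside 8.1% of all measured genes. Interneuron markers had a median of 0.24, with 8 of 11 higher and sums of 269 and 278. Oligodendrocyte markers were higher in 10 of 10 genes, with a median of 0.38 and sums of 3870.4 and 4863 units. Of these 10 genes 6 were past 5/4-fold, beside 8.1% of all measured genes. Microglia markers were lower in 7 of 9, with a median of -0.29 and sums of 199.99 and 156. Astrocyte markers had a median of -0.01, with 5 of 9 lower and sums of 2092 and 1815, in which Gfap alone was 778 and 360.0. Endothelium markers had a median of 0.00, with 2 of 5 measured genes higher and sums of 43.8 and 48.4. Choroid plexus and ependyma markers were higher in 6 of 6 measured genes, with a median of 0.56 and sums of 7.47 and 17.2. Striatum markers had a median of -0.08 over 3 measured genes, with sums of 57.3 and 54.2. Counts higher and lower past 5/4-fold were 3 and 1 of 11 (interneuron), 1 and 4 of 9 (microglia) and 1 and 1 of 9 (astrocyte). They were 1 and 0 of 5 (endothelium), 5 and 0 of 6 (choroid plexus and ependyma) and 0 and 0 of 3 (striatum). Among all measured genes the shares were 8.1% and 4.58%. The part of these differences in the ratios of the calmodulin and CaM kinase genes, Camk2g included, was not tested.

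**Figure D5:**
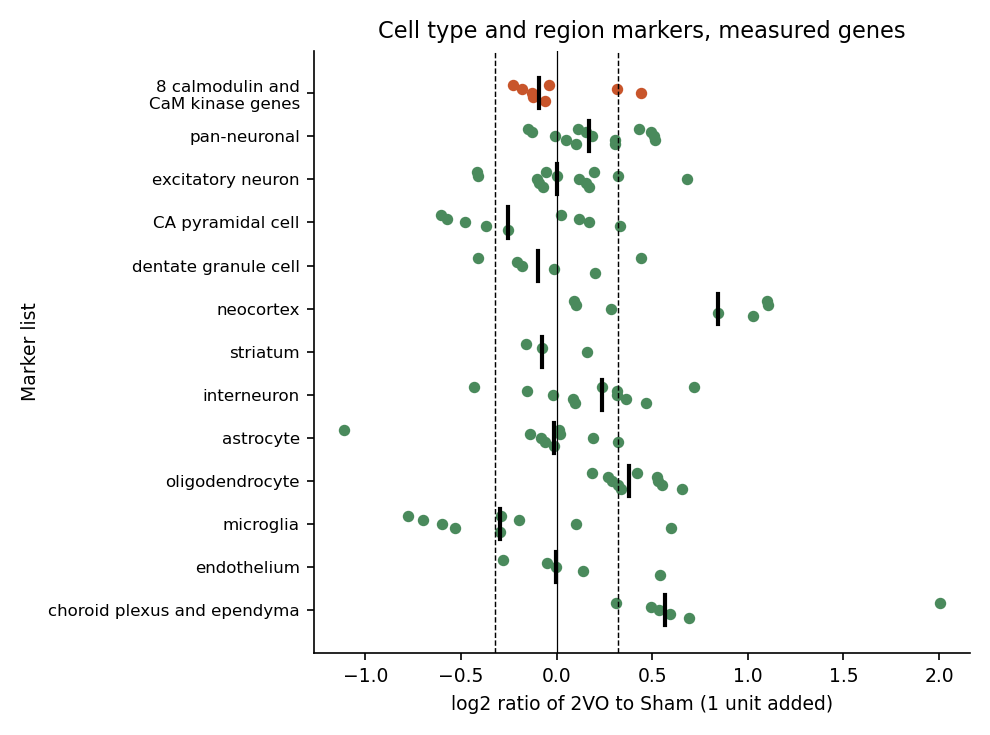
Log2 ratio of 2VO to Sham (1 unit added) for the 8 named genes (orange) and the measured genes of 12 marker lists (green), 1 point per gene, with a black bar at each median and dashed lines at 5/4-fold. All points of the oligodendrocyte, neocortex, and choroid plexus and ependyma lists lie above 0. The medians of the microglia, CA pyramidal cell, dentate granule cell and striatum lists lie below it, as does that of the 8 genes. The astrocyte and endothelium medians lie close to 0.

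The wild-type mouse and the rats are set side by side as a description, because species, age and annotation cannot be told apart. Single mouse values can be far from the rats for genes that every cell uses: Gapdh, a glycolytic enzyme gene, was 1031 units in Sham, 1219 in 2VO and 6.36 in the mouse. Calm2 and Camk2g were higher in the mouse than in both rats, Calm3, Nrgn, Camk2a, Camk2b and Camk4 were lower than in both, and Camk2d lay between the rats. A mouse value outside the range of both rats was seen for 7 of the 8 genes, against 90.8% of 11457 shared symbols, so such a gap is what most genes show. A difference of at least 2-fold between mouse and Sham was seen for 0 of the 8 genes, against 6.54% of 11436 shared symbols higher and 11.3% lower in the mouse. Calm3 came nearest, with Sham at 1.897 times the mouse. Camk2g was 1.57 times the Sham level in the mouse and 1.15 times the 2VO level. These comparisons use the same mouse library.

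Among 489 shared symbols that averaged 100 units or more, Map2 had the pattern over the 3 libraries most like that of Camk2a, by the distance between their log2 levels after each gene was centred on its own mean. Map2, which encodes a dendritic microtubule-associated protein, was 131 units in Sham, 118 in 2VO and 116 in the mouse, at a distance of 0.019 log2 units. Eif4a2, Prkce, Ppp2r1a and Sort1 followed at distances of up to 0.056. For Calm2 the nearest gene was Thra, a thyroid hormone receptor, at 195 units in Sham, 197 in 2VO and 284 in the mouse and a distance of 0.12, followed by Cdc42, Cck, Ttc3 and Ddx5 at up to 0.15. With 3 libraries of 2 species such likeness describes levels only.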

How the data were processed

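Per the labels' protocols, TruSeq v2 libraries were made from hippocampal total RNA. Per the submitters' processing notes, the tools were HISAT2 2.1.0, fastp 0.21.0 and DESeq2, with mRatBN7.2 and GRCm39 as builds and no roles stated. The sources used here do not name the quantifier. Each table deposited by the authors holds 1 normalized expression signal per gene, in a unit not stated. The values summed to 325636 units in Sham, 333941 in 2VO and 268889 in the mouse, the depth is unknown, and no counting interval is given.

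The libraries were compared as deposited, with a pseudocount of 1 unit, over genes whose mean reached 1 unit. Rat and mouse genes were matched by symbol whatever its case (16251 shared). The 8 genes, the 8 pathway lists and the 12 marker lists were chosen with earlier results of these data known. Named besides the 8 genes are the genes of highest and lowest ratio in each pathway list, list genes that average 100 units or more, and the 5 genes most like Camk2a and Calm2. Not every gene taken by that rule is reported here, and Stx1a, Gfap and Gapdh were named outside it after their values were seen. Coding sequences came from GENCODE M21 and start regions from RefSeq. The calculation of the ratio was tested on simulated data with 2-fold changes, which does not bear on differences as small as those of the 8 genes. Python 3.11.15, pandas 2.3.3, numpy 2.4.6, statsmodels 0.14.6 and matplotlib 3.10.9 were used.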

Additional observations from a re-analysis of the deposited data

How the results depend on the processing

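With 1 library per group no alternative replaces a replicate, and no paired analysis was possible because each group holds 1 library. The 6 alternatives that shift the ratios (3 scalings and 3 centrings) all lowered those of the 8 genes. The 6 genes lower in 2VO could therefore not turn sign. For Camk2g and Camk2d a shift beyond their ratios of 0.44 and 0.316 was needed, and the largest was 0.17, with pan-neuronal centring. The split of 6 lower and 2 higher thus stayed in all 6, which says nothing about how firm it is. The 2 other pseudocounts and 2 other filters cannot turn a sign. Camk2g ranged from 0.27 to 0.45 and Camk2b from -0.40 to -0.23. Equal upper quartiles moved the median of all measured genes from 0.04 to -0.01, and the share of genes lower in 2VO from 41.3% to 52.2%.

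Centring on pan-neuronal markers shifted every gene alike, to a median of -0.26 over the 8 genes and -0.13 over all measured genes, of which 75.9% were then lower. At 5/4-fold 0 of the 8 were higher and 2 lower, Camk2b and Camk4, as were 2.57% and 15.1% of all measured genes. With 0.25 units added, 2 of the 8 were higher, as were 10.7% of all measured genes. Pan-neuronal centring put the list medians at -0.14 (other CaM kinases), -0.17 (calmodulin genes), -0.16 (IQ and MARCKS kind) and -0.075 (calcineurin). The other list medians were -0.18 (cyclases and others), -0.11 (CaMKII partners), -0.11 (CREB arm list) and -0.16 (calcium sensors), beside -0.13 over all measured genes. Without a filter the median of the cyclase list was 0.10.

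Of the 102 measured genes of the 8 lists, 11 were at least 5/4-fold higher and 4 lower, beside 8.1% and 4.58% of all measured genes. These counts became 6 and 9 with equal upper quartiles, 7 and 9 with median-of-ratios scaling, and 3 and 14 with pan-neuronal centring. The shares of all measured genes were 5.73% and 6.16%, 5.78% and 6.13%, and 2.57% and 15.1% in the same order. The lower count was 8 when the sum left out the 50 most abundant genes, beside 5.65% of all measured genes. It was 8 after centring on a lowess trend (span 0.3), beside 5.93%, and 2 with 4 units added, beside 2.13%. With all listed calmodulin genes in the sum, Calm3 made up 45.7% in Sham, 45.0% in 2VO and 30.4% in the mouse. In the 7 alternatives for the mouse, 0 of the 8 genes reached 2-fold.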
